A study of Mus musculus with 15 samples.

Results

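Short hairpin RNAs against LINE-1 were compared with each other in mouse neural progenitor cells: the hairpins named shLINE_Orf1 and shLINE_Orf2, taken as an equal mean of their groups, against the hairpin named shLINE_MdV_I. These are 9 of the 15 libraries of the series, 3 per hairpin, and all genes were measured in each. A short hairpin RNA lowers RNAs whose sequence matches its own, and each of the 3 groups received such a hairpin from a plasmid that also carried EGFP. All cells were wild type mouse neural progenitor cells kept with FGF2, EGF and heparin, and GFP-positive cells were collected by FACS on day 3 after the plasmids were introduced. Groups and replicate numbers came from the sample titles. The control hairpin group, shControl, took no part in the comparison. Nothing in the labels says that replicates came from separate cultures. The p-values set a difference between groups against the scatter of these samples, and that scatter may be technical.

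The series' design text speaks of hairpins directed at young LINE-1 elements and of others directed at old ones. The labels do not say which kind shLINE_Orf2 and shLINE_MdV_I are directed at. They pair an added full-length LINE-1 with shLINE_Orf1, and the design text pairs it with the hairpin against young elements. The hairpin sequences, LINE-1 transcripts and EGFP were not analysed here, so how far each hairpin lowered LINE-1 was not measured.

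LINE-1 elements are retrotransposons, which copy themselves through an RNA that encodes the proteins ORF1p and ORF2p. Cells can sense RNA of foreign or transposon origin with receptors such as RIG-I and MDA5, which signal through the adaptor Mavs and induce interferon. Interferon acts through transcription factors such as Stat2 and Irf9, which bind the interferon-stimulated response element in promoters and raise a set of antiviral genes. Interferon also raises MHC class I, the surface complex that displays peptides from inside the cell. Neural progenitor cells divide and can give rise to neurons, astrocytes and oligodendrocytes, and genes of those cell types are used here to describe the cultures.

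The libraries held between 39208923 and 48744349 counts assigned to genes. Levels are given as CPM, a gene's counts relative to the scaled library size, and fold changes are log2 ratios of the mean of the Orf hairpins over shLINE_MdV_I, with their SE. One library stood apart. On the first principal component, with 38.8% of the variance, shLINE_Orf1 replicate 1 lay at -73.8 and the other 8 libraries between -3.05 and 20.7. Its Spearman correlation to the others had a median of 0.974, against 0.994 to 0.995 for the rest, and mitochondrially encoded genes took 3.61% of its counts, against 1.37% to 1.97%. Along component 2 (12.2% of the variance) the 6 Orf libraries lay between -19.3 and 3.91 and the 3 shLINE_MdV_I libraries between 17.8 and 19.9. Counts of genes are therefore also given without shLINE_Orf1 replicate 1. Progenitor markers were present in all groups: Sox2 averaged 168, 198 and 199 CPM in shLINE_Orf1, shLINE_Orf2 and shLINE_MdV_I, and Olig2 averaged 749, 827 and 836 CPM (n = 3 each). The microglial marker Aif1 had 0 counts in all 9 libraries, Cx3cr1 at most 3, and the endothelial Cldn5 and Cdh5 at most 3 and 1. Of the 23 cell type markers, these 4 had too few counts to be tested, and none of the others passed the test in 9 libraries. Among those others, the endothelial marker Pecam1 was present, with 1257 to 1915 counts in a library. It averaged 38.6, 30.4 and 31.5 CPM in shLINE_Orf1, shLINE_Orf2 and shLINE_MdV_I. The microglial marker Csf1r had 5 to 28 counts.

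Of 14803 genes tested, 5 were higher with the Orf hairpins (0.0338%) and 10 were lower (0.0676%), at an adjusted p under 0.05 (edgeR's quasi-likelihood test, p-values adjusted by the Benjamini-Hochberg method). The higher genes were the interferon-induced Bst2, Ifit3b and Igtp, the ceramide synthesis gene Degs1 and the pseudogene Gm15280. The lower genes were the neuron genes Cplx1 and Scg3 and also Ptprn, Syt13, Cd80, Rasd1, Thbs2, Prss23, Ckmt1 and Ahnak2. Genes that pass this threshold are said below to have risen or fallen, or to be called. Without shLINE_Orf1 replicate 1, 15082 genes were tested, 130 rose (0.862%) and 101 fell (0.67%), and all 15 genes were among them in the same direction. The count depended on other libraries too: it was 0 without shLINE_MdV_I replicate 1, 4 without replicate 2 and 3 without replicate 3 of that group, 5 without shLINE_Orf1 replicate 3, and 3, 6 and 9 without shLINE_Orf2 replicates 1, 2 and 3. At an unadjusted p under 0.05 the 9 libraries gave 1188 genes. A measure that needs no model is whether groups overlap: all 6 Orf libraries were above all 3 shLINE_MdV_I libraries for 411 genes (2.78%) and below them for 547 (3.7%).

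**Figure D1:**
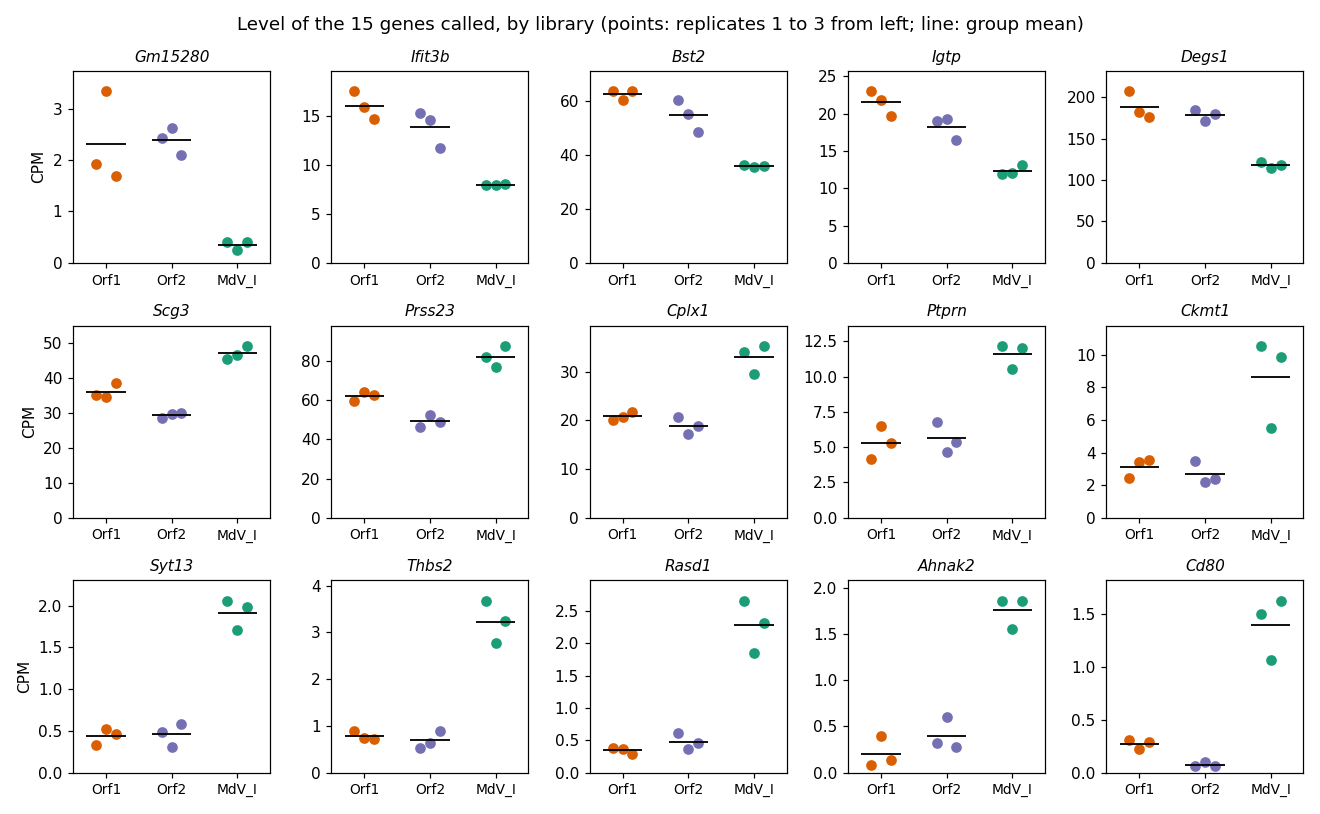
Level in CPM (vertical axis, linear from 0) of the 15 genes called, in shLINE_Orf1, shLINE_Orf2 and shLINE_MdV_I, with 1 point per library and a line at each group mean. In every panel the 6 Orf libraries lie on one side of the 3 shLINE_MdV_I libraries.

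Bst2 encodes tetherin, an interferon-induced membrane protein that holds budding virus particles at the cell surface (chromosome 8, 71534255 to 71537456, minus strand, GRCm38). It was at 63.4, 60.1 and 63.4 CPM in shLINE_Orf1, at 60.3, 54.9 and 48.6 CPM in shLINE_Orf2 and at 36.3, 35.5 and 35.7 CPM in shLINE_MdV_I. All 6 Orf libraries were above the 3 shLINE_MdV_I libraries, which differed little among themselves. Its log2 fold change was 0.70 ± 0.09 (adjusted p = 0.0238), with 0.80 ± 0.10 for shLINE_Orf1 alone and 0.61 ± 0.10 for shLINE_Orf2 alone.

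Ifit3b belongs to the interferon-induced tetratricopeptide repeat family, whose members bind viral RNA (chromosome 19, 34607970 to 34613401, plus strand). It had 17.5, 15.9 and 14.6 CPM in shLINE_Orf1, 15.3, 14.6 and 11.7 CPM in shLINE_Orf2, and 7.88, 7.92 and 8.05 CPM in shLINE_MdV_I. The lowest Orf library, shLINE_Orf2 replicate 3, was still above every shLINE_MdV_I library. The log2 fold change was 0.90 ± 0.12 (adjusted p = 0.0271). Ifit3, its close copy on the same chromosome, was at 38.4 ± 7.4, 34.8 ± 4.3 and 21.7 ± 1.2 CPM in shLINE_Orf1, shLINE_Orf2 and shLINE_MdV_I (SD, n = 3 each). How reads were divided between these copies is uncertain.

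Igtp encodes an immunity-related GTPase induced by interferon, which acts at the membranes that enclose intracellular pathogens (chromosome 11, 58199556 to 58207591, plus strand). Levels were 23, 21.9 and 19.7 CPM in shLINE_Orf1, 19.0, 19.2 and 16.5 CPM in shLINE_Orf2, and 11.9, 12 and 13.1 CPM in shLINE_MdV_I. The groups did not overlap, and the log2 fold change was 0.69 ± 0.10 (adjusted p = 0.0463). Igtp shares sequence positions with Irgm2 on the same strand, which had at most 365 counts in a library.

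The promoters of Bst2, Ifit3b and Igtp are shown because they are the interferon-response genes that rose in 9 libraries, together with that of Isg15, whose test missed the threshold there and which was picked as an example of several matches. The window of Irf7, whose test also missed it, held no match and is not shown. Each line gives the 250 bases before the RefSeq transcription start (build GRCm38.p6), 5′ to 3′ on the strand of the gene. Capitals mark matches to the core of the interferon-stimulated response element, GAAA followed by any 2 bases and a second GAAA, or to its reverse complement. Overlapping matches run together.
Bst2, chr8:71537473-71537722, minus strand: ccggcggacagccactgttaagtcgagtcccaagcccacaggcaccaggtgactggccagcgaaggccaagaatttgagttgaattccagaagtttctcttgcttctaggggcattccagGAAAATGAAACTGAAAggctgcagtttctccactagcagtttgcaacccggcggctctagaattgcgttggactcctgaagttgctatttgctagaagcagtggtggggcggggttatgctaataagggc
Ifit3b, chr19:34607707-34607956, plus strand: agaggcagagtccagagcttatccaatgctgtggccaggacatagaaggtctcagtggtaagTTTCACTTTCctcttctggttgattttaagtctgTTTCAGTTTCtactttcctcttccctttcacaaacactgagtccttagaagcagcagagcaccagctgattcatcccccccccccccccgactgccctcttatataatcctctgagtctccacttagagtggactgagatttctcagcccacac
Igtp, chr11:58199306-58199555, plus strand: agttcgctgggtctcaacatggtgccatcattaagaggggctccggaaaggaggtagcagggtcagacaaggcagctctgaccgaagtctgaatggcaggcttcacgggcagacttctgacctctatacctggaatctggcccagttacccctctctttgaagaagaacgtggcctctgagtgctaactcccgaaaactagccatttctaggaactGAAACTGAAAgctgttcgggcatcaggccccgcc
Isg15, chr4:156200819-156201068, minus strand: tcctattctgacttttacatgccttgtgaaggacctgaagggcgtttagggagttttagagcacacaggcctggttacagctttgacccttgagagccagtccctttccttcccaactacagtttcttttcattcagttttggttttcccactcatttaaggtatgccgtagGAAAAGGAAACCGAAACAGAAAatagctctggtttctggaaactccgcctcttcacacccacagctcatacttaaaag

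In Bst2 the first of 2 overlapping matches began 130 bases before the start and in Igtp the single match began 34 bases before it. Ifit3b held its 2 matches on the other strand, 188 and 154 bases before the start, and Isg15 held 3 overlapping matches from 78 bases before it. Among the 52 tested interferon-response genes with a promoter in the RefSeq table, 28 held the motif (53.8%) on either strand in the window of 250 bases before to 50 after the start. The share was 3.7% of the 11036 tested genes with a promoter (408 genes) and 3.99% of all 27025 genes in the table. Of genes called higher without shLINE_Orf1 replicate 1, 25 of 94 held it (26.6%), and of those called lower, 0 of 76. Among MHC class I genes 5 of 22 held it (22.7%), and among neuron genes 2 of 32. A match is a description of letters in the window, and binding was not measured.

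The list of interferon-response genes held 72 genes, of which 69 were tested. In 9 libraries 3 rose and none fell, against 0.0338% and 0.0676% of all genes. Their median log2 fold change was 0.41, against 0.00 for all genes, and it was 0.47 for shLINE_Orf1 and 0.36 for shLINE_Orf2. Both of those values rest on the same shLINE_MdV_I libraries. For 33 of the 69 (47.8%) all 6 Orf libraries were above all 3 shLINE_MdV_I libraries, and for none were they below. Without shLINE_Orf1 replicate 1, 28 of the 69 rose (40.6%) and none fell, against 0.862% and 0.67% of all genes. Averaged over the list, log2 CPM relative to the mean of shLINE_MdV_I was 0.44, 0.48 and 0.49 in shLINE_Orf1, 0.54, 0.43 and 0.26 in shLINE_Orf2, and -0.03, 0.05 and -0.02 in shLINE_MdV_I. Of the list of microglia and blood genes, only 5 of 20 had enough counts to be tested.

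Isg15, a ubiquitin-like protein that interferon induces, was at 57.0, 48.6 and 54.8 CPM in shLINE_Orf1, at 44.2, 42.4 and 44.2 CPM in shLINE_Orf2 and at 34.7, 32.7 and 33.7 CPM in shLINE_MdV_I. The 3 groups were ordered without overlap. The mean of the Orf hairpins missed the threshold (adjusted p = 0.0516), while shLINE_Orf1 alone rose by 0.67 (adjusted p = 0.0324). In shLINE_Orf2 alone its log2 fold change was 0.37 (adjusted p = 0.378).

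Other effectors missed the threshold in 9 libraries and were called without shLINE_Orf1 replicate 1. Ifi27l2a, an interferon-induced gene outside the list, had the highest log2 fold change of the genes that the naming rule gives in that fit, 1.11 ± 0.12. It was at 33.6, 16.8 and 21.3 CPM in shLINE_Orf1, 23.7, 20.7 and 16.7 CPM in shLINE_Orf2, and 9, 8.71 and 9.76 CPM in shLINE_MdV_I. Here the library left out was the highest, and the other 5 Orf libraries were also above shLINE_MdV_I. Gbp6, a guanylate-binding protein, rose by 0.86 ± 0.13 in that fit, Oasl2, a member of the oligoadenylate synthetase family, by 0.69 ± 0.10, and Ifit3 by 0.69 ± 0.09. Of the list, Irgm1, Iigp1, Tgtp2, Ifi35, Xaf1, Herc6, Rtp4, Trim30a, Ifi44, Usp18, Ifitm3, Gbp3, Trim34a, Ifi27, Phf11d, Trim21, Oas1a and Lgals3bp were also called there.

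Not all interferon-response genes were higher. In 9 libraries the log2 fold changes of Pml, Oasl1, Stat2, Irf1, Isg20, Cxcl10, Mx1, Ifih1 and Helz2 were negative, and none of them was called. Without shLINE_Orf1 replicate 1, 64 of the 69 were positive. Isg20, Cxcl10, Mx1 and Helz2 were then just above 0, at 0.02, 0.02, 0.05 and 0.05. Cxcl10, a chemokine, was at 77.9, 95.6 and 102 CPM in shLINE_Orf1, at 79.6, 75.9 and 91.8 CPM in shLINE_Orf2 and at 86.1, 92.3 and 90.5 CPM in shLINE_MdV_I. Mx1, an antiviral GTPase, ranged from 10.3 to 20.7 CPM in the Orf libraries and from 16.5 to 18.2 CPM in shLINE_MdV_I. Both genes overlapped between the groups.

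Among the transcription factors of the response, Irf7, which drives interferon genes, was at 36.4, 30.8 and 28.3 CPM in shLINE_Orf1, at 32.0, 29.3 and 18.7 CPM in shLINE_Orf2 and at 14.8, 15.7 and 15.2 CPM in shLINE_MdV_I. All Orf libraries were above shLINE_MdV_I, with shLINE_Orf2 replicate 3 nearest to it. The log2 fold change was 0.94 ± 0.17 in 9 libraries (adjusted p = 0.0764), and it was called without shLINE_Orf1 replicate 1 at 0.89 ± 0.14. Irf7 overlaps Phrf1 on the opposite strand, which had up to 4536 counts, and whether counting used strand is not given in the sources used here. Irf9 averaged higher with the Orf hairpins but overlapped narrowly, with 39.6 CPM in shLINE_Orf2 replicate 3 and 40.1 CPM in shLINE_MdV_I replicate 1. It was not called (adjusted p = 0.328).

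Sensors of nucleic acids, with their adaptors, were a list of 36, of which 32 were tested. None was called in 9 libraries, 18 were positive and the median log2 fold change was 0.03, against 0.00 for all genes. For 3 of the 32 (9.38%) all Orf libraries were above shLINE_MdV_I, against 2.78% of all genes. With shLINE_Orf1 replicate 1 left out, 25 of the 32 were positive, with a median of 0.07. Irf7 and Ddx58, which encodes RIG-I, were called higher without shLINE_Orf1 replicate 1 (6.25% of the list, against 0.862% of all genes). Ddx58 was at 22.1, 31.4 and 30.0 CPM in shLINE_Orf1, at 32.5, 32.6 and 28 CPM in shLINE_Orf2 and at 23.9, 25.2 and 22.2 CPM in shLINE_MdV_I. In shLINE_Orf1 replicate 1 it lay just below the shLINE_MdV_I range, and in the other 5 Orf libraries above it. Mavs, the adaptor, had a log2 fold change of -0.01 ± 0.12, with 22.1 to 33.1 CPM in the Orf libraries and 29.1 to 31.3 CPM in shLINE_MdV_I. The difference between the sensor list and the effector list was not tested.

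Genes of MHC class I and of peptide loading were mostly higher with the Orf hairpins. Of 27 tested, 23 were positive, with a median log2 fold change of 0.32 (0.28 for shLINE_Orf1 and 0.31 for shLINE_Orf2), and 11 (40.7%) had all Orf libraries above all shLINE_MdV_I libraries, against 2.78% of all genes. None was called in 9 libraries. Without shLINE_Orf1 replicate 1, 11 of the 27 rose (40.7%, against 0.862% of all genes) and none fell. They were the light chain B2m, the heavy chain genes H2-D1, H2-K1, H2-T22, H2-T23, H2-Q4 and H2-Q7, the immunoproteasome subunit Psmb8, the peptide transporter subunit Tap2, the peptide-trimming enzyme Erap1 and the chaperone Canx. The heavy chain genes resemble each other closely, so how reads were divided among them is uncertain. MHC and interferon-response genes are not independent groups, since interferon acts on both.

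B2m was at 640, 428 and 418 CPM in shLINE_Orf1, at 417, 401 and 384 CPM in shLINE_Orf2 and at 246, 252 and 288 CPM in shLINE_MdV_I. All Orf libraries were above shLINE_MdV_I, and shLINE_Orf1 replicate 1 was far above the rest. Its adjusted p was 0.0832 in 9 libraries, and it was called at a log2 fold change of 0.66 ± 0.07 without that replicate. H2-D1 showed no such high library, with 363, 428 and 393 CPM in shLINE_Orf1, 446, 370 and 347 CPM in shLINE_Orf2 and 257, 249 and 291 CPM in shLINE_MdV_I (adjusted p = 0.0928). Psmb8 ranged from 35.8 to 49.7 CPM in the Orf libraries and from 24.6 to 27.2 CPM in shLINE_MdV_I (adjusted p = 0.056). Nlrc5, a transactivator of MHC class I genes, was at 1.67 to 3.66 CPM in the Orf libraries and 2.61 to 3.31 CPM in shLINE_MdV_I, and its groups overlapped.

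**Figure D2:**
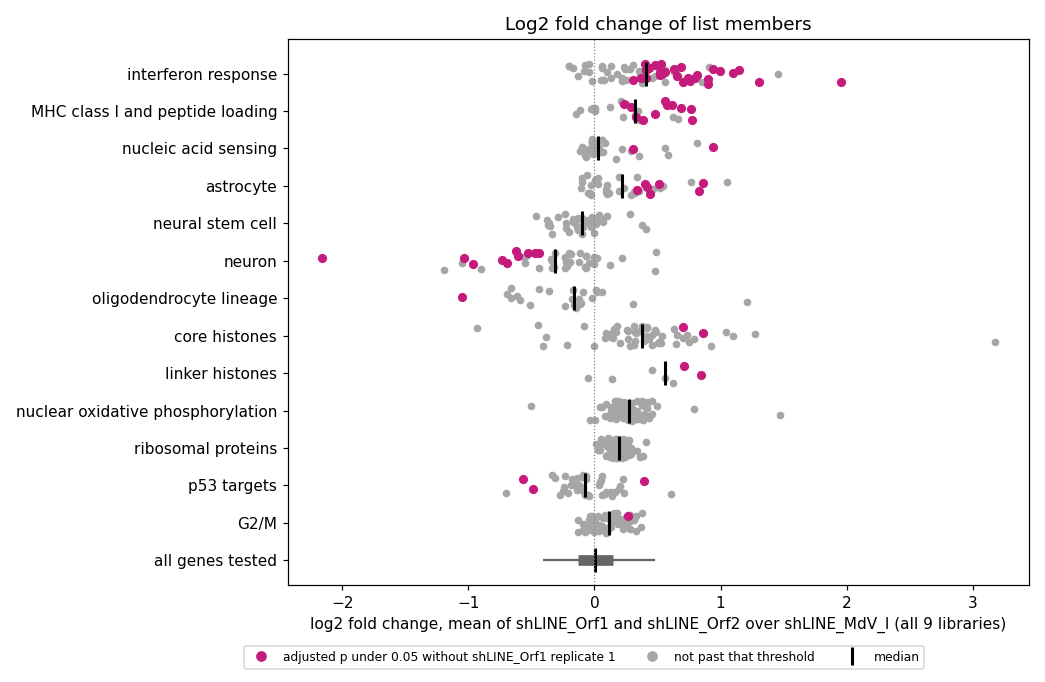
Log2 fold change of the mean of shLINE_Orf1 and shLINE_Orf2 over shLINE_MdV_I in 9 libraries (horizontal axis) for the tested members of 13 gene lists, 1 point per gene, with the list median as a black bar and, for all genes tested, the median, the middle 50% and the middle 90%. Pink points are genes with an adjusted p under 0.05 without shLINE_Orf1 replicate 1. Interferon and MHC class I points lie mostly right of 0, with medians of 0.41 and 0.32, and neuron points mostly left, with a median of -0.31.

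The remaining risen genes lie outside these lists. Degs1 encodes the dihydroceramide desaturase that forms ceramide (chromosome 1, 182275772 to 182282804, minus strand). It was at 207, 182 and 176 CPM in shLINE_Orf1, at 185, 171 and 179 CPM in shLINE_Orf2 and at 121, 115 and 118 CPM in shLINE_MdV_I. Every Orf library was well above every shLINE_MdV_I library, and the log2 fold change was 0.64 ± 0.08 (adjusted p = 0.0271). Gm15280 is annotated as an unprocessed pseudogene (chromosome X, 31347183 to 31347822, minus strand). It had 76, 135 and 77 counts in shLINE_Orf1, 114, 131 and 101 counts in shLINE_Orf2 and 20, 12 and 19 counts in shLINE_MdV_I, and its log2 fold change was 2.75 ± 0.31 (adjusted p = 0.0154). As a pseudogene it may share reads with a parent gene, which was not tested.

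Apart from list members, the rule for named genes, applied after the data had been seen to the fit without shLINE_Orf1 replicate 1, also gave Tmem14a and Slc39a12. The membrane protein gene Tmem14a rose by 0.78 ± 0.10 there, and Slc39a12, a zinc transporter, by 0.71 ± 0.13. For Slc39a12 the levels in all 9 libraries were 13.5 to 18.9 CPM in shLINE_Orf1, 10.1 to 10.5 CPM in shLINE_Orf2 and 6.39 to 8.98 CPM in shLINE_MdV_I. shLINE_Orf1 was highest and shLINE_MdV_I lowest.

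Of the genes that fell, Cplx1 and Scg3 are on the neuron list, Thbs2 is on the matrix list and the other 7 are on none. Cplx1 encodes complexin 1, which binds the fusion machinery of synaptic vesicles (chromosome 5, 108518554 to 108550024, minus strand). It was at 20, 20.8 and 21.6 CPM in shLINE_Orf1, at 20.6, 17.2 and 18.8 CPM in shLINE_Orf2 and at 34, 29.4 and 35.2 CPM in shLINE_MdV_I. No Orf library reached the shLINE_MdV_I range, and the log2 fold change was -0.73 ± 0.10 (adjusted p = 0.0271).

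Scg3 encodes secretogranin III, a protein of dense-core granules (chromosome 9, 75643189 to 75684056, minus strand). Its levels were 35.1, 34.6 and 38.7 CPM in shLINE_Orf1, 28.6, 29.7 and 30.2 CPM in shLINE_Orf2, and 45.6, 46.6 and 49.2 CPM in shLINE_MdV_I. shLINE_Orf2 was lowest, shLINE_Orf1 between and shLINE_MdV_I highest, without overlap. The log2 fold change was -0.53 ± 0.08 (adjusted p = 0.0463), with -0.38 ± 0.09 for shLINE_Orf1 and -0.68 ± 0.09 for shLINE_Orf2. Ptprn encodes a transmembrane protein of dense-core vesicles (chromosome 1, 75247027 to 75264502, minus strand). It was at 4.18, 6.50 and 5.28 CPM in shLINE_Orf1, at 6.76, 4.68 and 5.39 CPM in shLINE_Orf2 and at 12.2, 10.5 and 12 CPM in shLINE_MdV_I. The groups did not overlap, and the log2 fold change was -1.08 ± 0.16 (adjusted p = 0.0463).

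Syt13, of the synaptotagmin family of vesicle proteins (chromosome 2, 92915098 to 92956058, plus strand), had 13, 21 and 21 counts in shLINE_Orf1, 23, 15 and 28 counts in shLINE_Orf2 and 103, 85 and 94 counts in shLINE_MdV_I. Its log2 fold change was -2.09 ± 0.25 (adjusted p = 0.0173).

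The genes with the smallest p had few counts. Cd80, a ligand that costimulates T cells (chromosome 16, 38455561 to 38496335, plus strand), had 12, 9 and 13 counts in shLINE_Orf1, 3, 5 and 3 counts in shLINE_Orf2 and 75, 53 and 77 counts in shLINE_MdV_I. shLINE_Orf2 was lowest and shLINE_MdV_I highest, with no overlap, and the log2 fold change was -3.26 ± 0.28 (adjusted p = 0.00388). Rasd1, a Ras-related GTPase that glucocorticoids induce (chromosome 11, 59963181 to 59964944, minus strand), was at 0.38, 0.37 and 0.29 CPM in shLINE_Orf1, at 0.62, 0.36 and 0.46 CPM in shLINE_Orf2 and at 2.65, 1.85 and 2.32 CPM in shLINE_MdV_I. Its groups were well separated, at -2.48 ± 0.23 (adjusted p = 0.00388). Thbs2, which encodes the matrix glycoprotein thrombospondin 2 (chromosome 17, 14665500 to 14694235, minus strand), was at 0.89, 0.74 and 0.72 CPM in shLINE_Orf1, at 0.53, 0.64 and 0.90 CPM in shLINE_Orf2 and at 3.67, 2.76 and 3.25 CPM in shLINE_MdV_I. The Orf groups overlapped each other and lay below shLINE_MdV_I, at -2.13 ± 0.20 (adjusted p = 0.00388). These 3 genes were called in 19 of 20 alternative settings and the other 12 called genes in 9 to 15 of them.

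Ahnak2, a large protein related to the scaffold Ahnak (chromosome 12, 112772194 to 112802657, minus strand), had 3, 16 and 6 counts in shLINE_Orf1, 15, 30 and 13 counts in shLINE_Orf2 and 93, 77 and 88 counts in shLINE_MdV_I (log2 fold change -2.62 ± 0.39, adjusted p = 0.0463). Its SD was alike in shLINE_Orf1, shLINE_Orf2 and shLINE_MdV_I, at 0.17, 0.18 and 0.17 CPM, around means of 0.20, 0.40 and 1.75 CPM. Only relative to the mean did it vary more within the Orf groups. Prss23, a secreted serine protease (chromosome 7, 89507783 to 89527187, minus strand), was at 59.6, 64.4 and 62.6 CPM in shLINE_Orf1, at 46.3, 52.5 and 49.2 CPM in shLINE_Orf2 and at 81.9, 77.1 and 87.7 CPM in shLINE_MdV_I. The 3 groups did not overlap, with shLINE_Orf2 lowest (-0.57 ± 0.08, adjusted p = 0.0344). Ckmt1, the mitochondrial creatine kinase (chromosome 2, 121357714 to 121363737, plus strand), was at 2.43, 3.41 and 3.55 CPM in shLINE_Orf1, at 3.49, 2.22 and 2.39 CPM in shLINE_Orf2 and at 10.5, 5.48 and 9.88 CPM in shLINE_MdV_I. shLINE_MdV_I replicate 2 was nearest to the Orf libraries, without overlap (-1.57 ± 0.23, adjusted p = 0.0463).

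Neuron genes as a list were mostly lower with the Orf hairpins. Of 47 tested, 42 had a negative log2 fold change, and the median was -0.31 (-0.35 for shLINE_Orf1 and -0.20 for shLINE_Orf2). Cplx1 and Scg3 fell in 9 libraries and none rose, and 14 of the 47 (29.8%) had all Orf libraries below all shLINE_MdV_I libraries, against 3.7% of all genes. Without shLINE_Orf1 replicate 1, 10 fell (21.3%, against 0.67% of all genes) and the median was -0.22: besides these 2 they were Stmn3, Stmn4, Ina, Neurod1, Syn1, Celf3, Tubb3 and Snap25. The list mean relative to shLINE_MdV_I was -0.73, -0.31 and -0.31 in shLINE_Orf1 and -0.25, -0.27 and -0.33 in shLINE_Orf2, so shLINE_Orf1 replicate 1 was the lowest library. In bulk samples, fewer cells of a type and less RNA of these genes per cell cannot be told apart.

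Neurod1, a transcription factor of new neurons, was at 0.152, 0.247 and 0.263 CPM in shLINE_Orf1, at 0.319, 0.100 and 0.312 CPM in shLINE_Orf2 and at 0.958, 0.988 and 1.2 CPM in shLINE_MdV_I. There was no overlap between the Orf hairpins and shLINE_MdV_I (log2 fold change -2.16 ± 0.34, adjusted p = 0.0516). Stmn4, a stathmin that binds tubulin in neurons, was at 8.58, 5.78 and 6.84 CPM in shLINE_Orf1, at 7.27, 5.90 and 6.18 CPM in shLINE_Orf2 and at 11.4, 9.92 and 11.4 CPM in shLINE_MdV_I (adjusted p = 0.113). Snap25, a subunit of the vesicle fusion complex, ranged from 4.87 to 6.53 CPM in the Orf libraries and from 7.71 to 7.84 CPM in shLINE_MdV_I (adjusted p = 0.281). Tubb3, a neuronal tubulin, overlapped: shLINE_Orf2 replicate 3 had 12.6 CPM and shLINE_MdV_I replicate 3 had 11.9 CPM.

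The naming rule, applied to the fit without shLINE_Orf1 replicate 1, also gave genes outside the neuron list that fell. Ap3b2, the neuronal subunit of an adaptor complex that forms synaptic vesicles, fell by 0.74 on the log2 scale there. It was at 9.47, 11.5 and 14 CPM in shLINE_Orf1, at 12.5, 12.5 and 12.8 CPM in shLINE_Orf2 and at 22.8, 22.3 and 18.7 CPM in shLINE_MdV_I, with no overlap. The sodium channel subunit Scn3b fell by 0.60, Crmp1, which acts in axon guidance, by 0.59, Igsf21, a synaptic adhesion protein, by 0.62, and Sarm1, an NAD-cleaving enzyme of axon degeneration, by 0.55. The kinases Dapk1 and Dgkg fell by 0.71 and 0.57, and the sphingomyelinase Smpd3 by 0.67. Smpd3 and Crmp1 overlap Prmt7 and Evc on the opposite strand. Scn3b was at 9.88 to 12.1 CPM in shLINE_Orf1, 6.21 to 7.31 CPM in shLINE_Orf2 and 12.8 to 13.7 CPM in shLINE_MdV_I.

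Astrocyte genes were mostly higher with the Orf hairpins. Of 36 tested, 28 were positive with a median log2 fold change of 0.22 (0.35 for shLINE_Orf1 and 0.16 for shLINE_Orf2), none was called in 9 libraries, and 8 (22.2%) had all Orf libraries above shLINE_MdV_I, against 2.78% of all genes. Without shLINE_Orf1 replicate 1, 7 genes rose (19.4%, against 0.862% of all genes), among them Apoe, Sparcl1, Mt2, S100b, Mt1 and Vcam1, and none fell. Apoe, a lipid carrier that astrocytes secrete, was at 539, 467 and 372 CPM in shLINE_Orf1, at 287, 298 and 283 CPM in shLINE_Orf2 and at 180, 185 and 251 CPM in shLINE_MdV_I. shLINE_Orf1 was highest and shLINE_MdV_I lowest, and Apoe was called in shLINE_Orf1 alone (1.16 ± 0.16, adjusted p = 0.0324) and not in shLINE_Orf2 alone (0.49 ± 0.16, adjusted p = 0.638). Whether the hairpins differ was tested directly and missed the threshold (adjusted p = 0.399). The defining marker Gfap was at 4.91 ± 1.52, 4.99 ± 0.97 and 3.39 ± 0.43 CPM in shLINE_Orf1, shLINE_Orf2 and shLINE_MdV_I (SD, n = 3 each), and was not called. In the same order the marker Aqp4 averaged 5.77, 6.11 and 3.48 CPM and Aldh1l1 285, 240 and 245 CPM, and neither was called. Other astrocyte genes were near 0 in 9 libraries, with log2 fold changes of 0.00 for Glul, 0.03 for Slc1a2, 0.10 for Slc1a3 and 0.10 for Gja1.

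The stem cell list had a median of -0.10, with none of 39 genes called, and its mean was -0.53 in shLINE_Orf1 replicate 1 and between -0.09 and 0.06 in the other 5 Orf libraries. The oligodendrocyte lineage list had a median of -0.17 over 24 genes. From it Gpr17, a receptor of oligodendrocyte precursors, was called lower without shLINE_Orf1 replicate 1 (4.17% of the list, against 0.67% of all genes). It was at 1.27, 1.80 and 1.84 CPM in shLINE_Orf1, at 3.68, 3.56 and 4.37 CPM in shLINE_Orf2 and at 5.95, 5.04 and 4.66 CPM in shLINE_MdV_I. shLINE_Orf1 was far below both other groups, and shLINE_Orf2 was just below shLINE_MdV_I.

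**Figure D3:**
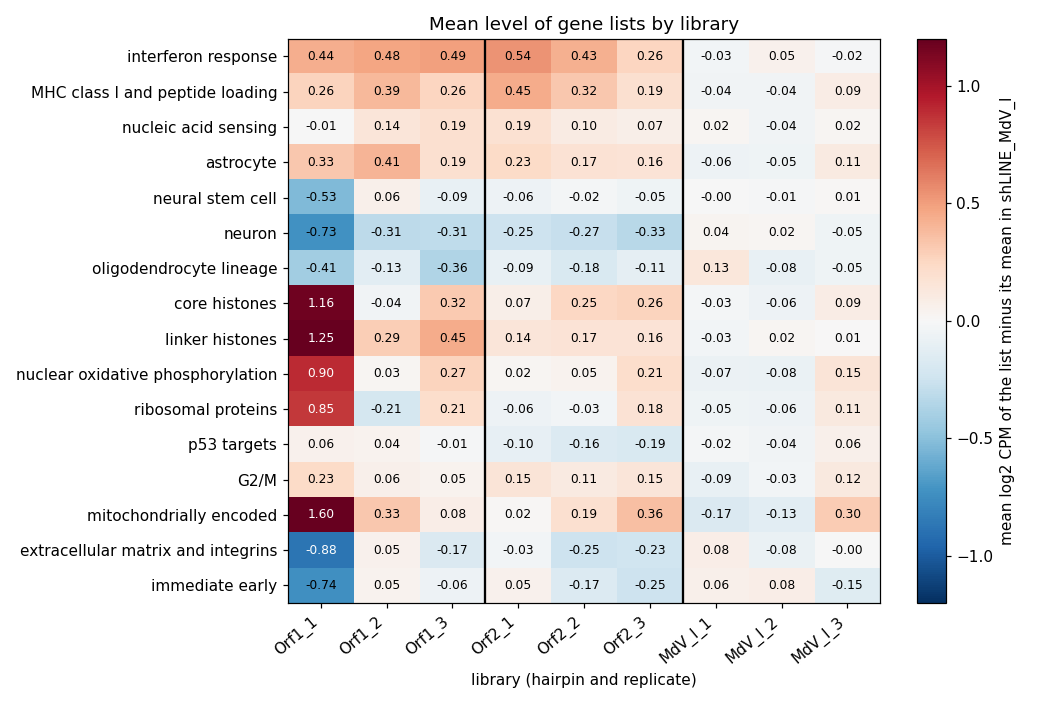
Mean log2 CPM of each gene list in each of the 9 libraries, minus its mean in shLINE_MdV_I, as colours, with libraries of shLINE_Orf1, shLINE_Orf2 and shLINE_MdV_I from left to right. The interferon row is positive in all 6 Orf libraries (0.26 to 0.54), while the ribosomal, oxidative phosphorylation and core histone rows reach 0.85, 0.90 and 1.16 in shLINE_Orf1 replicate 1.

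Several lists moved mainly with shLINE_Orf1 replicate 1. All 81 ribosomal protein genes tested had a positive log2 fold change, with a median of 0.19, but the median was 0.02 without that library. For 88 nuclear genes of oxidative phosphorylation the medians were 0.28 with it and 0.12 without it, for 12 mitochondrially encoded genes 0.49 and 0.19, and for 78 mitochondrial ribosomal proteins 0.15 and 0.03. None of the genes in these 4 lists was called with or without it. The list mean of ribosomal proteins was 0.85 in shLINE_Orf1 replicate 1 and between -0.21 and 0.21 in the other 5 Orf libraries, and -0.06 to 0.11 in shLINE_MdV_I. The part of RNA quality or of handling in these values was not tested.

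Histone genes behaved in both ways. The median of 55 core histone genes was 0.38, and 0.15 without shLINE_Orf1 replicate 1, and that of 7 linker histone genes was 0.56, and 0.23 without it. Without it the core histone genes Hist1h2bc and Hist1h2ae rose (3.57% of 56 tested there, against 0.862% of all genes). So did 2 of the 7 linker histone genes, Hist1h1c and Hist1h1d, and no member of either list fell. The histone variant gene H2afy2, outside these lists, fell by 0.30 in that fit. Hist1h2bc, an H2B gene, was at 169, 101 and 105 CPM in shLINE_Orf1, at 97.2, 113 and 111 CPM in shLINE_Orf2 and at 59.2, 61.1 and 70.3 CPM in shLINE_MdV_I (chromosome 13, 23684199 to 23692908, plus strand). The Orf libraries were all above shLINE_MdV_I, also apart from the high replicate 1, and the log2 fold change was 0.86 ± 0.17 in 9 libraries (adjusted p = 0.0908) and 0.73 ± 0.07 without it, where it was called. Hist1h1c, the linker histone H1.2, was at 100, 59.1 and 65.3 CPM in shLINE_Orf1, at 52.4, 59.4 and 56.3 CPM in shLINE_Orf2 and at 34.9, 41.3 and 42.5 CPM in shLINE_MdV_I. Histone genes of a family are near-identical, so how reads were divided among them is uncertain. How far the library protocol or RNA quality shaped the histone counts was not tested.

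The other lists held few called genes, and apart from Thbs2 none in 9 libraries. Of 51 genes of oxidative stress and glutathione, Gstm1, Nfe2l2, Gsta4, Srxn1, Sod3 and Mgst1 rose without shLINE_Orf1 replicate 1 (11.8%, against 0.862% of all genes). Gstm1, a glutathione transferase, was at 244 to 274 CPM in shLINE_Orf1, 190 to 214 CPM in shLINE_Orf2 and 150 to 178 CPM in shLINE_MdV_I. Nfe2l2, the transcription factor of that response, ranged from 121 to 149 CPM in the Orf libraries and from 98.9 to 109 CPM in shLINE_MdV_I. Of 57 extracellular matrix and integrin genes, Thbs2 fell in 9 libraries. Without shLINE_Orf1 replicate 1, Thbs2 and the collagens Col18a1 and Col11a1 fell and the collagen Col9a3 rose (7.02% of the list in either direction, against 1.53% of all genes). Col18a1 overlaps Slc19a1 on the opposite strand.

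In the same fit, without shLINE_Orf1 replicate 1, Btg2, an antiproliferative target of p53 that is also an immediate early gene, fell by 0.55. It was at 61.1, 64.9 and 62.9 CPM in shLINE_Orf1, at 55.7, 65.1 and 62.1 CPM in shLINE_Orf2 and at 92.8, 82.7 and 100.03 CPM in shLINE_MdV_I, with no overlap. Of 44 p53 targets, Bbc3 also fell there and Gdf15 rose (6.82% of the list in either direction, against 1.53% of all genes). The next lists each had 1 or 2 members called in either direction, 1.59% to 5.56% of a list, against 1.53% of all genes. The lowest of these shares, for G2/M genes, was near that of all genes. In them Fosl1, an immediate early gene, the EGF receptor ligand Tgfa, the Notch ligand Dll1 and the biosynthetic enzyme Pycr1 fell, and the Wnt secretion factor Wls, the chaperone Dnajb9, the mitotic Prc1 and the small heat shock protein Cryab rose. Tgfa fell by 0.56, with 8.60 to 14.6 CPM in the Orf libraries and 17.0 to 20.7 CPM in shLINE_MdV_I. Cryab was at 53.9 to 69.8 CPM in shLINE_Orf1, 36.1 to 40.7 CPM in shLINE_Orf2 and 28.7 to 35.5 CPM in shLINE_MdV_I, and the other members of the heat shock list were not called.

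No gene was called, in 9 libraries or without shLINE_Orf1 replicate 1, among retrotransposon restriction and heterochromatin genes (57 tested), glycolysis and hypoxia genes (46), cholesterol synthesis (37), DNA replication and G1/S (60), nucleolus and ribosome biogenesis (84), proteasome (33), V-ATPase and lysosome (52), and endothelial, pericyte and fibroblast genes (8 in 9 libraries). Their medians were between -0.06 and 0.08 in 9 libraries. Of the V-ATPase and lysosome genes, 39 of 52 were positive. For 7 of them (13.5%) all Orf libraries were above shLINE_MdV_I, against 2.78% of all genes. For 2 (3.85%) they were below, against 3.7% of all genes. For 50 of 63 G2/M genes the log2 fold change was positive, with a median of 0.12.

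Each Orf hairpin was also set alone against the same 3 shLINE_MdV_I libraries. For shLINE_Orf1, 22 genes were called (0.149%), 17 higher and 5 lower, and for shLINE_Orf2, 9 genes (0.0608%), 1 higher and 8 lower. The split without shLINE_Orf1 replicate 1 was 106 higher and 58 lower for shLINE_Orf1, and 68 higher and 93 lower for shLINE_Orf2. Of the 15 genes called for their mean, 9 were called in shLINE_Orf1 alone and 7 in shLINE_Orf2 alone. The direct comparison of shLINE_Orf1 with shLINE_Orf2 called 0 genes with edgeR's quasi-likelihood test, with 1307 at an unadjusted p under 0.05, 101 called by DESeq2 and 370 by limma-voom. Its lowest adjusted p among the 15 genes was 0.399. For Cd80 the difference of shLINE_Orf1 minus shLINE_Orf2 was 1.80 ± 0.42 on the log2 scale, and for Bst2 0.19 ± 0.10. A p that misses the threshold does not show that the hairpins act alike.

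The control hairpin gives the level of these genes in the same culture type, as a description without a test. In shControl, Bst2 was at 59.0, 77.8 and 46.9 CPM, Ifit3b at 22.5, 15.7 and 14.3 CPM and Degs1 at 176, 182 and 173 CPM, which lie nearer to the Orf libraries than to shLINE_MdV_I. Irf7 was at 38.1, 40.8 and 28.6 CPM there. Of the genes that fell, Thbs2 was at 1, 0.58 and 0.84 CPM in shControl, Cplx1 at 14.7, 14.7 and 16.3 CPM and Ptprn at 4.61, 5.41 and 4.23 CPM, again on the side of the Orf libraries. These genes are examples, and others did not follow this. Gm15280 had 1.69 to 3.34 CPM in the Orf libraries, 0.24 to 0.40 CPM in shLINE_MdV_I and 0.23, 0.28 and 0.48 CPM in shControl. Col18a1, which fell without shLINE_Orf1 replicate 1, was at 60.1, 47.2 and 66.4 CPM in shControl. It averaged 38.9, 30.1 and 56.3 CPM in shLINE_Orf1, shLINE_Orf2 and shLINE_MdV_I. Tgfa, at 15.2, 11.9 and 18.5 CPM in shControl, lay on neither side alone. For Prss23, shControl was at 43.2, 43.4 and 39.9 CPM, below all 9 libraries. For Hist1h2bc, shControl was at 192, 320 and 206 CPM, above all 9 libraries.

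**Figure D4:**
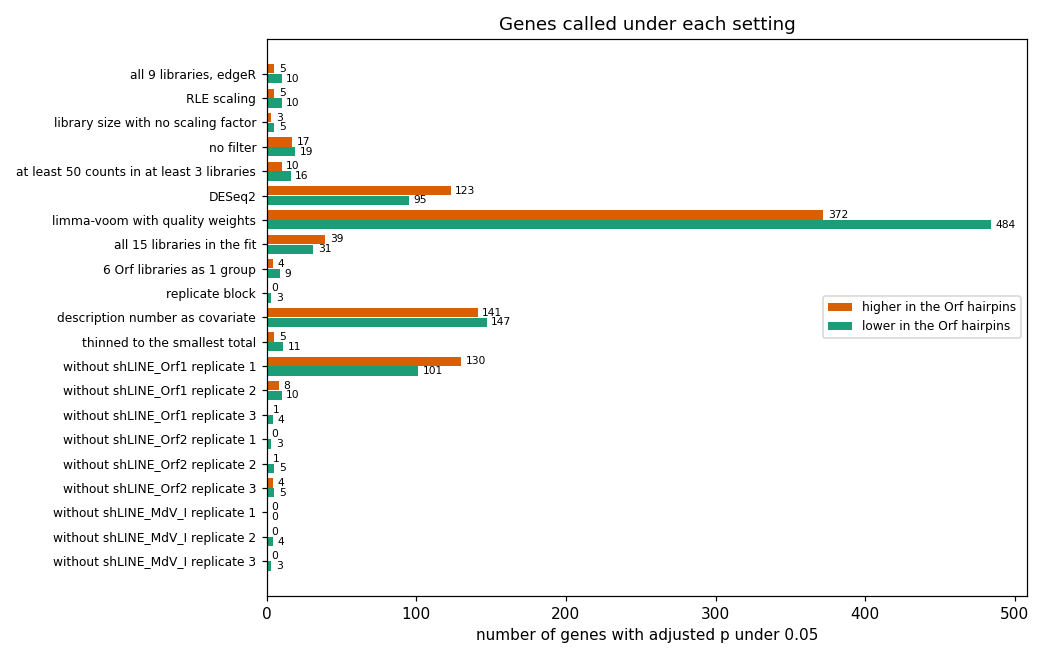
Number of genes called higher (orange) and lower in the Orf hairpins against shLINE_MdV_I (horizontal axis) under each setting of the analysis (vertical axis). The 9 libraries with edgeR give 5 and 10, and the settings range from 0 without shLINE_MdV_I replicate 1 to 856 with limma-voom.

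The library descriptions end in a number, 1 or 12, whose meaning is not given in the sources used here. Number 12 was carried by shLINE_Orf1 replicate 1 and by shLINE_MdV_I replicates 2 and 3. Within number 1 (5 Orf libraries and 1 of shLINE_MdV_I) and within number 12 (1 and 2 libraries), all 15 genes kept the direction they had in 9 libraries. For these genes no Orf library overlapped shLINE_MdV_I, so any split of the libraries keeps the direction. The split therefore says nothing of the part of the number, and the groups are too small there for a test. Bst2 averaged 57.5 CPM in the Orf libraries of number 1, against 36.3 CPM in shLINE_MdV_I, and 63.4 CPM within number 12, against 35.6 CPM.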

How the data were processed

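RNA of 15 libraries was measured, of which 9 are compared. The authors deposited unnormalized expected counts (reads shared out by an estimate) of each transcript in each library. The submitters' processing notes name cutadapt, RSEM and mm10, and the sources used here give no versions, settings, annotation or use of strand. Per the labels' protocols, RNA was extracted with TRIZOL and libraries followed a SMART-seq2 type protocol. A second deposited table, of the authors' own model, was not used here.

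Of 111462 transcript rows, 110203 had a gene in GENCODE M21 (GRCm38, the build that mm10 names). They were summed to 34989 genes and rounded. The rest, 0.583% to 0.637% of a library's counts, and 1 blank row were left out. A filter on low counts (edgeR's filterByExpr, minimum 10) left 14803 genes. TMM factors were between 0.854 and 1.04, and 1 model of the 3 groups was fitted with robust quasi-likelihood in edgeR 4.0.16 (R 4.3.3, limma 3.58.1, DESeq2 1.42.0), with Benjamini-Hochberg adjustment over all genes tested. The code was tested on simulated data. The biological coefficient of variation was 0.165. Replicates differed by more than counting noise, at a chi-square of 8.77 to 262 per degree of freedom. CPM of shControl used TMM factors on the same scale.

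Members and the 32 gene lists were chosen with earlier results of these data known. Genes were named by a rule: in each direction up to 12 called genes of the largest log2 fold change whose mean log2 CPM was 3 or more, with groups that do not overlap and no clone or predicted-gene symbol, and also the members of lists called, the markers and, where fewer than 5 genes met it, those with the smallest p. The rule was also applied, after the data had been seen, to the fit without shLINE_Orf1 replicate 1. Alternatives were RLE scaling, no scaling, no filter, at least 50 counts in at least 3 libraries, DESeq2, limma-voom with quality weights, all 15 libraries, the Orf groups pooled, thinned libraries, a replicate block, the description number and leaving out each library. Promoters came from RefSeq (GRCm38.p6). Some members of the lists are counted but not reported here by name.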

Additional observations from a re-analysis of the deposited data

How the results depend on the processing

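With all 9 libraries, 15 genes were called for the mean of the Orf hairpins against shLINE_MdV_I. The count was 8 with no scaling factor, 36 with no filter, 26 with at least 50 counts in at least 3 libraries, 218 with DESeq2, 856 with limma-voom and quality weights, 70 with all 15 libraries in the fit, 288 with the description number as covariate and 3 with a replicate block, and 0 to 231 over the fits that left out 1 library. For shLINE_Orf1 alone (22 genes) these settings gave 10, 57, 29, 313, 1227, 104, 1702 and 0, and 0 to 164 on leaving out 1 library. For shLINE_Orf2 alone (9 genes) they gave 4, 11, 10, 107, 414, 17, 1 and 0, and 0 to 161. For shLINE_Orf1 against shLINE_Orf2 (0 genes) DESeq2 gave 101, limma-voom 370 and leaving out 1 library 0 to 10. The extremes came without shLINE_Orf1 replicate 1 (231, 164, 161 and 10) and, at 0 for the mean, without shLINE_MdV_I replicate 1. The causes were not tested. Deviations of libraries with the same replicate number correlated between -0.16 and 0.10, and those with unlike numbers between -0.18 and 0.22. No pairing by number was seen in these values, but with 3 libraries per group they cannot exclude it. A call lost under the replicate block says nothing of the size of the fold change. Of the values of named genes under the alternatives, 482 stayed on the same side of the threshold, 110 passed it and 108 lost it, and none reversed. These genes were chosen by the naming rule or as called in 9 libraries, and none overlapped between the Orf hairpins and shLINE_MdV_I. A reversal was therefore hardly possible. The interferon median ranged from 0.36 to 0.47, the MHC class I median from 0.25 to 0.35, the neuron median from -0.42 to -0.18 and the astrocyte median from 0.17 to 0.25. The medians of the lists for nucleic acid sensing, heat shock, glycolysis, G1/S, FGF and EGF feedback, the Notch pathway, the proteasome and endothelial genes lay on both sides of 0. Depth limits Cd80, Rasd1, Syt13 and Ahnak2, with 3 to 30 counts in each Orf library, and Neurod1, with as few as 5.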
